A study of Mus musculus with 24 samples.

Results

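The 10 genes described here are immediate-early transcription factor genes (*Fos*, *Jun*, *Junb*, *Egr1*, *Atf3* and *Myc*) and genes of the p53 stress response (*Cdkn1a*, *Gadd45a*, *Ccng1* and *Mdm2*). They were taken by annotated symbol from the value table of the liver arrays, which gave 16 probe sets of the 12422 tested and 10 of the 8251 genes on the array. The rule used symbols alone, and the set was proposed with earlier results of these data known. The livers came from male wild-type and PPARα-null mice, 9 to 12 weeks old, of a mixed SV129/C57BL/6 background. In each strain 3 mice received control diet, 3 received control diet and heat shock (HS), 3 received the PPARα agonist WY-14,643 (WY) at 500 ppm in the diet for 1 week, and 3 received WY and then HS (WY+HS), so that 8 groups held 24 mice. HS was a 40-minute exposure to 42 °C in a heated chamber, and the paper places sampling of these livers 4 hours later. The PPARα-null mice lack the receptor in every tissue, so the liver's own response cannot be told apart from responses to signals from other organs.

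Immediate-early genes are transcribed within minutes of a stimulus without new protein synthesis, and their messages usually decay within hours. *Fos*, *Jun* and *Junb* encode subunits of the AP-1 dimer, *Egr1* a zinc finger factor, *Myc* a basic helix-loop-helix factor of growth control, and *Atf3* a basic leucine zipper factor that responds to many kinds of cell stress. p53 is a transcription factor stabilised by DNA damage and other stress, and *Cdkn1a* (p21, an inhibitor of cyclin-dependent kinases), *Gadd45a* (a growth arrest protein), *Ccng1* (cyclin G1) and *Mdm2* (the ubiquitin ligase that limits p53) are among its known targets.

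The promoter windows of *Atf3*, *Cdkn1a* and *Ccng1* are shown because these genes carried the changes described below. They come from RefSeq on GRCm38.p6 and run from 250 bases before to 50 bases after an annotated start, written 5′ to 3′ on the strand of the gene. The *Atf3* window is chr1:191183284-191183583 on the minus strand, the *Cdkn1a* window is chr17:29090729-29091028 on the plus strand and the *Ccng1* window is chr11:40755237-40755536 on the minus strand. Capitals mark a match to TGATGNAA (read on the opposite strand) in *Atf3*, to TTCNNGAA in *Cdkn1a* and to the p53 half-site in *Ccng1*.
Atf3: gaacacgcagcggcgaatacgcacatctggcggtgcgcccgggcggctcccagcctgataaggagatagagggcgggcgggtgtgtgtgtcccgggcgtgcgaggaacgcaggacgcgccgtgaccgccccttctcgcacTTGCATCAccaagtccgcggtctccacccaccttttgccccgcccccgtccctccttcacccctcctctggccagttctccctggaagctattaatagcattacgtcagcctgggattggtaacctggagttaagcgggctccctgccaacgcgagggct
Cdkn1a: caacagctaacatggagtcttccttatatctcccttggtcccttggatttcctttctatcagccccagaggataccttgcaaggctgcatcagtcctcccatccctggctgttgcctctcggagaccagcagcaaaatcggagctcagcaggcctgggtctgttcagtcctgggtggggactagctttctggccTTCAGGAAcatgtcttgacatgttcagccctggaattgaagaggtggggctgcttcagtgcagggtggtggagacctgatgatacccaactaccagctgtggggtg
Ccng1: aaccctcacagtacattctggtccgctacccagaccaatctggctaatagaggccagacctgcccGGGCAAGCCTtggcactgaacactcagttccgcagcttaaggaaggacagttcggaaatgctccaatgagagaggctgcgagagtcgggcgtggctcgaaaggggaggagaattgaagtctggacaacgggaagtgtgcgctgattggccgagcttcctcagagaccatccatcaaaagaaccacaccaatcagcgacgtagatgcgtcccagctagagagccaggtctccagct

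Windows were found for 8 of the 10 genes (9 windows, *Cdkn1a* having a pair of starts). Both strands were searched for TTCNNGAA and GAANNTTC (paired units of the heat shock element), TGACGTCA and TGANTCA (sites of ATF and AP-1 dimers), TGATGNAA (a form of the C/EBP-ATF composite site), the CArG box and the p53 half-site. TTCNNGAA lay in 8.52%, GAANNTTC in 7.86%, TGACGTCA in 1.79%, TGANTCA in 7.81%, TGATGNAA in 3.97%, the CArG box in 1.63% and the p53 half-site in 8.36% of all 32851 windows. Among the windows of the 10 genes, TGATGNAA began 110 bases before the start of *Atf3*, and TTCNNGAA began 56 bases before the start of *Cdkn1a*. GAANNTTC began 128 bases before the start of *Jun*. The p53 half-site began 73 and 51 bases before the start of *Cdkn1a*, the nearer one overlapping TTCNNGAA, and 185, 186 and 40 bases before the starts of *Ccng1*, *Mdm2* and *Gadd45a*. All *Cdkn1a* matches lay in the window printed above, and the window of its other start had no match to any of these patterns. A match is a run of letters and not a measured site, and nothing follows from the letters that were not found.

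Values are probe set intensities, quantile normalized over the arrays and set to a floor of 15.7 before log2 was taken. A value at the floor means no measurable signal above background. Where the lower group lies wholly at the floor, its fold is a lower bound and is written "at least". The array medians before normalization ran from 15.2 to 40.5, 24.1% of deposited values lay at or below 0, and 42.9% of normalized values lay at the floor. *Ppara* read 181 to 357 in wild-type and 103 to 210.2 in null mice, the lowest wild-type value being that of HS mouse 5. The sources used here do not say whether this probe set covers the disrupted part of the gene. The 6 hepatocyte markers on the array summed to between 31276 and 35002 in every mouse, but single markers moved. Of their 6 probe sets, 4 passed the F test described below, beside 25.5% of all probe sets. In wild-type mice limma called 2 lower after WY, beside 10.8% of all probe sets in either direction. After WY+HS it called 1 higher and 2 lower, beside 10.6%, and the higher call was lost without mouse 11. In a whole-liver sample, fewer cells of a type and less RNA per cell cannot be told apart.

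Mice 5 and 18 stood apart from the others of their groups, as did mouse 11 by its array. In wild-type HS mouse 5 the chaperone gene *Hsph1* read 244, against 1619.7 and 1362 in mice 4 and 6, while the PPARα target *Cyp4a14* read 1837, against 229 and 273. In PPARα-null HS mouse 18 *Hsph1* read 342, against 1572 and 1563 in mice 16 and 17. Wild-type WY+HS mouse 11 had the lowest array median of the 24. Where leaving out 1 of these mice ended or made a call described below for 1 of the 10 genes, the value without it is given.

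Of the 16 probe sets, 12 rose above the floor in at least 1 mouse. The 4 at the floor on all arrays were the *Myc* probe set, 1 of 3 for *Atf3* (161645_r_at), 1 of 2 for *Fos* (161716_at) and 1 of 2 for *Egr1* (161802_i_at), and they carry no information on change. limma's moderated F test over the 8 groups (Benjamini-Hochberg adjusted p under 0.05 over all 12422 probe sets) called 6 of the 16, where it called 25.5% of all probe sets. The 6 were both remaining *Atf3* probe sets, both *Cdkn1a* probe sets, *Egr1* 98579_at and *Junb* 102363_r_at. *Gadd45a* (adjusted p = 0.0613) and *Ccng1* (adjusted p = 0.056) lay just outside, and *Mdm2*, *Jun*, *Fos* and *Junb* 102362_i_at had adjusted p from 0.163 to 0.507.

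Against their own controls, members rose mainly in wild-type WY+HS livers. There limma called 6 of 16 probe sets, all higher, beside 10.6% of all probe sets called in either direction and 5.23% called higher. WY alone in wild-type mice gave 2 (*Cdkn1a* 94881_at and *Ccng1*, both higher) beside 10.8% in either direction and 5.59% higher. HS in PPARα-null mice gave 1 (*Egr1*, higher) beside 7.07% and 3.18% higher. Heat added to WY in wild-type mice, WY+HS against WY, gave 3 (both *Atf3* probe sets and *Junb* 102363_r_at, all higher) beside 0.427% and 0.274% higher. The 3 comparisons within wild-type mice share control, WY or WY+HS mice and are not independent of one another.

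The remaining comparisons had no member past limma's threshold. HS in wild-type mice called 0 of 16 beside 0.0403% of all probe sets, with 2 members at an unadjusted p under 0.05. In null mice the count was 0 after WY (beside 0.00805%, 1 unadjusted), 0 after WY+HS (beside 0.0161%, 1 unadjusted) and 0 for WY+HS against WY (beside 0.0242%, 2 unadjusted). Null against wild-type control livers gave 0 (beside 0.845%, 0 unadjusted). The interactions of HS with genotype and of WY with genotype, which test whether the strains' changes differ, gave 0 each (beside 1.62% with 2 unadjusted, and beside 5.13% with 1 unadjusted). The methods' test, an analysis of variance with Scheffe's post-hoc test, also called 0 members in each of these 7 comparisons.

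**Figure D1:**
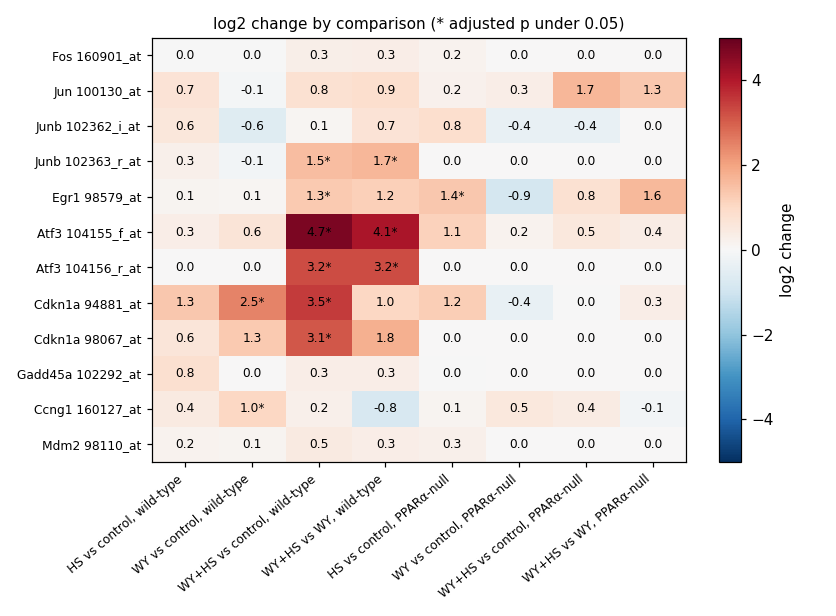
Log2 change of the 12 probe sets that rose above the floor, in rows, for the 8 treatment comparisons, in columns, with colour from blue (lower) to red (higher) and an asterisk at an adjusted p under 0.05. The 6 asterisks in the wild-type WY+HS column are those of *Atf3*, *Cdkn1a*, *Junb* 102363_r_at and *Egr1*, and the null WY and WY+HS columns have none.

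*Atf3* was the member with the largest change. Its probe set 104155_f_at read 35.9, 24.7 and 18.2 in wild-type controls, 23.6, 43.1 and 30.9 after HS, 41.6, 41.1 and 35.7 after WY, and 650.3, 925 and 483 after WY+HS. All 3 wild-type WY+HS mice lay above every other mouse of the study. The mean of 686 ± 223 stood against 26.2 ± 8.99 in controls (SD, n = 3 mice per group, log2 change 4.71, SE 0.36, limma adjusted p = 1.17e-07), which is 26.2-fold. Against WY alone (39.5 ± 3.24) the log2 change was 4.07 (adjusted p = 7.67e-06).

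The second *Atf3* probe set, 104156_r_at, read 147, 248 and 91.6 in the wild-type WY+HS mice. It lay at the floor in the other 21 mice. The mean of 162 ± 79.3 was at least 9.49-fold higher than in controls (log2 change 3.25, SE 0.21, limma adjusted p = 1.32e-08). Groups that lie at the floor show no spread of their own and lower the pooled one, so this p-value may be too small, as for other probe sets with many mice at the floor.

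In PPARα-null livers *Atf3* 104155_f_at read 38.2, 30.4 and 34.9 in controls, 80.9, 93.0 and 58.7 after HS, 40.1, 37.4 and 37.8 after WY, and 36.9, 99.9 and 32.7 after WY+HS. The 3 null HS mice lay above all null controls, with a log2 difference of 1.15 (SE 0.36) that did not pass limma's threshold (adjusted p = 0.0668). It passed without mouse 18 (1.34, adjusted p = 0.0482). In the null WY+HS group only mouse 23 exceeded the controls.

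Heat and WY together gave more *Atf3* signal than the sum of either alone on the log2 scale. In wild-type mice the HS change was 3.75 larger under WY than under control diet (SE 0.51, limma adjusted p = 0.00245), and 3.51 larger without mouse 11 (adjusted p = 0.00742). With only the arrays compared the call was lost (adjusted p = 0.06). Probe set 104156_r_at was called too, but it lay at the floor in the other wild-type groups, so its HS change under control diet was not measured. This comparison, like the next pair, was added after the data had been seen. It called 2 members higher, beside 0.105% of all probe sets in either direction and 0.0564% higher. Under WY diet the HS change in null mice differed from that in wild-type mice by -3.71 for 104155_f_at (SE 0.51, adjusted p = 0.00281), and by -3.47 without mouse 11 (adjusted p = 0.00717). This call was lost with only the arrays compared (adjusted p = 0.0994). The count was again 2 members, both lower, beside 0.105% in either direction and 0.0564% lower, the second being 104156_r_at, which lay at the floor in all null groups. With only the 6 wild-type mice fed WY in the fit, the rise with added heat lost its call for 104155_f_at (adjusted p = 0.0596) and 104156_r_at (adjusted p = 0.177). The call against control stood under all 34 alternatives, including those without mouse 11.

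**Figure D2:**
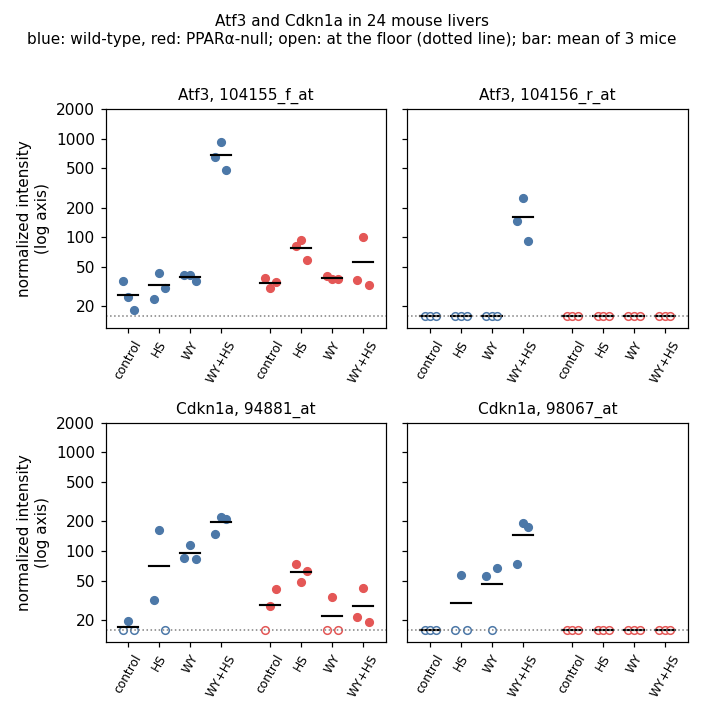
Normalized intensity (log axis) of the 2 detectable *Atf3* and the 2 *Cdkn1a* probe sets, 1 point per mouse and 3 mice per group, with bars at the group means, blue for wild-type, red for PPARα-null and open points at the floor of 15.7. *Atf3* is high in the 3 wild-type WY+HS mice, at 483 to 925 for 104155_f_at, while *Cdkn1a* 94881_at is also raised after WY, at 82.0 to 116.

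*Cdkn1a* rose with WY and stood highest with WY+HS, in wild-type mice. Probe set 94881_at read at the floor in control mice 1 and 3 and 19.6 in mouse 2. After WY it read 85.6, 116 and 82.0, and after WY+HS 149.9, 221 and 212. Neither treated group overlapped the controls.

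The WY change was 2.46 on the log2 scale (94.5 ± 18.6 against 17.0 ± 2.25, SD, n = 3 mice per group, SE 0.61, limma adjusted p = 0.0131) and the WY+HS change 3.50 (194 ± 38.6, adjusted p = 8.04e-04). The WY+HS mice lay above the WY mice, but the difference of the 2 groups was not called (log2 change 1.04, adjusted p = 0.687). Without WY mouse 8 the WY call was lost (2.31, adjusted p = 0.0531). The methods' test did not call it, whereas the WY+HS call stood under all 34 alternatives.

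After HS alone the 3 wild-type mice read 31.5, 162 and the floor for *Cdkn1a* 94881_at. The high value was that of mouse 5, which also had the high *Cyp4a14* value. With it the log2 change was 1.35 (limma adjusted p = 0.866) and without it 0.39. In null mice the probe set read the floor, 27.6 and 41.1 in controls, 73.6, 47.9 and 63.1 after HS, the floor, 34.3 and the floor after WY, and 21.2, 42.2 and 19.2 after WY+HS. The null HS mice lay above their controls (log2 change 1.21, adjusted p = 0.305), and the null WY and WY+HS groups overlapped them.

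The other *Cdkn1a* probe set, 98067_at, rose above the floor in 6 mice, all wild-type. They were HS mouse 5 at 57.2, WY mice 7 and 9 at 55.7 and 66.3, and the 3 WY+HS mice at 72.8, 191 and 174. WY+HS gave at least an 8.52-fold rise (log2 change 3.09, SE 0.50, limma adjusted p = 3.72e-04). After WY the log2 difference of 1.30 was not called (adjusted p = 0.123), and it was called without HS mouse 5 (adjusted p = 0.0475) and without WY mouse 8 (1.95, adjusted p = 0.00878).

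The strains' responses to WY+HS were compared directly, after the data had been seen. The change in null minus that in wild-type mice was called lower for 5 members, beside 5.34% of all probe sets in either direction and 2.66% lower. It was -4.19 for *Atf3* 104155_f_at (limma adjusted p = 6.26e-05), -3.25 for *Atf3* 104156_r_at (2.82e-06), -3.52 for *Cdkn1a* 94881_at (0.0218), -3.09 for *Cdkn1a* 98067_at (0.0133) and -1.53 for *Junb* 102363_r_at (0.00803). For *Atf3* 104156_r_at, *Cdkn1a* 98067_at and *Junb* 102363_r_at every null mouse lay at the floor, so that their change in null mice was not measured and the p-value may be too small. Without mouse 11 all 5 were called, with adjusted p up to 0.047. The *Cdkn1a* 94881_at call was lost without control mouse 3, null control mouse 15 or null WY+HS mouse 22 or 24 (adjusted p from 0.0522 to 0.0593), without scaling (0.108), with the floor at the 20th percentile (0.147) and under the methods' test (0.0769). The floor at the 20th percentile is a lower floor than the main one, at 3.04. The *Junb* call was lost without scaling (adjusted p = 0.376), with that floor (0.078) and on an asinh scale (0.342), and the *Cdkn1a* 98067_at call without scaling (0.135). For WY alone the strains' difference in *Cdkn1a* 94881_at was -2.82 and not called (adjusted p = 0.0753), but it was called without mouse 5 (adjusted p = 0.00549) or mouse 6 (adjusted p = 0.031).

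*Egr1* was the only member called after HS in null mice. Probe set 98579_at read 25.9, 41.2 and 22.3 in null controls, 81.7, 75.8 and 64.4 after HS, the floor in all 3 mice after WY, and 42.3, 49.4 and 55.8 after WY+HS. The null HS mice lay above all null controls (73.97 ± 8.83 against 29.8 ± 10.05, SD, n = 3 mice per group, log2 change 1.36, SE 0.40, limma adjusted p = 0.0486). This call was lost under 26 of 34 alternatives, with adjusted p up to 0.446, so it lies at the edge of what 3 mice per group resolve. Without null HS mouse 18 the change was 1.45 and the adjusted p 0.0579.

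In wild-type mice *Egr1* read 22.4, 23.2 and the floor in controls, the floor, 43.8 and the floor after HS, 28.7, the floor and 22.5 after WY, and 52.96, 83.5 and 27.8 after WY+HS. The WY+HS mice lay above the controls (log2 change 1.30, limma adjusted p = 0.0441), a call lost under 24 of 34 alternatives among them without mouse 11 (0.93, adjusted p = 0.195) and without null HS mouse 18 (adjusted p = 0.0511). The HS value above the floor was that of mouse 5. The HS change differed between strains by 1.22 (adjusted p = 0.373), or by 1.71 without mouse 5 (adjusted p = 0.109), and was not called either way. In WY-fed null mice HS gave at least a 3.10-fold higher *Egr1* reading that was not called (log2 change 1.63, adjusted p = 0.288).

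Some markers of other cell types were also higher in null HS livers, where *Egr1* was called. Of 9 stellate cell or fibroblast probe sets 4 were called higher, of 7 neutrophil probe sets 2 and of 5 endothelial probe sets 2. Of all probe sets 7.07% were called in either direction and 3.18% higher. The median log2 change was 0.45, 0 and 0.25 in these lists and 0 over all probe sets. The only neutrophil probe sets past the F test were 1 each of *S100a8* and *S100a9*. The stellate cell or fibroblast markers summed to 1757 to 2251 in null HS mice against 1272 to 1463 in null controls, the neutrophil markers to 348 to 408 against 195 to 286, and the endothelial markers to 213 to 227 against 109 to 137. Without mouse 18 the counts were 3, 2 and 1, and 4 of 9 skeletal muscle probe sets were called higher, against 0 with it. *Ngp* of the neutrophil list lay at the floor in all mice. Kupffer cell or macrophage markers (10 probe sets), lymphocyte markers (8) and cholangiocyte markers (4) had none called, and of these *Ptprc*, *Cd3e*, *Cd8a*, *Krt7* and *Epcam* lay at the floor in all mice. The part of these cells in the *Egr1* result was not tested.

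*Junb*, an AP-1 subunit, rose in wild-type WY+HS livers by 1 of its probe sets. Probe set 102363_r_at read 64.1, 43.1 and 44.6 after WY+HS, 20.7 in control mouse 3 and 36.0 in HS mouse 4, and lay at the floor in the other 19 mice. The WY+HS mice lay above all others (50.6 ± 11.7 against 17.4 ± 2.86 in controls, SD, n = 3 mice per group, log2 change 1.53, SE 0.23, limma adjusted p = 1.66e-04). Against WY alone it was at least 3.16-fold higher (adjusted p = 0.00125), a call lost in the fit of only those 6 mice (adjusted p = 0.141).

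The other *Junb* probe set did not follow it. Probe set 102362_i_at was above the floor in 8 mice, among them WY+HS mouse 11 alone of its group at 67.1 and all 3 null HS mice at 35.6, 45.0 and 30.2. Its adjusted p was 0.507 over the 8 groups, so the probe sets of *Junb* disagree.

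*Jun*, the partner of *Fos* in AP-1, varied among mice of 1 group. In wild-type livers 100130_at read the floor, the floor and 48.1 in controls, 24.4, 43.1 and 45.2 after HS, 27.7, the floor and 22.6 after WY, and the floor, 106 and 35.3 after WY+HS. All wild-type groups overlapped. In null livers it lay at the floor in the 3 controls and read 39.6, 60.1 and 51.8 after WY+HS, all above the other null mice, whose highest value was 25.0. That rise was at least 3.16-fold and missed limma's adjusted threshold (log2 change 1.66, SE 0.53, unadjusted p = 0.0064, adjusted p = 0.619).

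*Fos* was hardly detected 4 hours after HS. Its detectable probe set 160901_at exceeded the floor in 4 mice, at 16.8 in wild-type control mouse 1, 25.3 and 18.9 in WY+HS mice 10 and 11 and 22.3 in null HS mouse 18. *Myc* lay at the floor in all 24 mice. A level below the floor cannot be ranked, so these arrays do not show whether either gene changed.

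**Figure D3:**
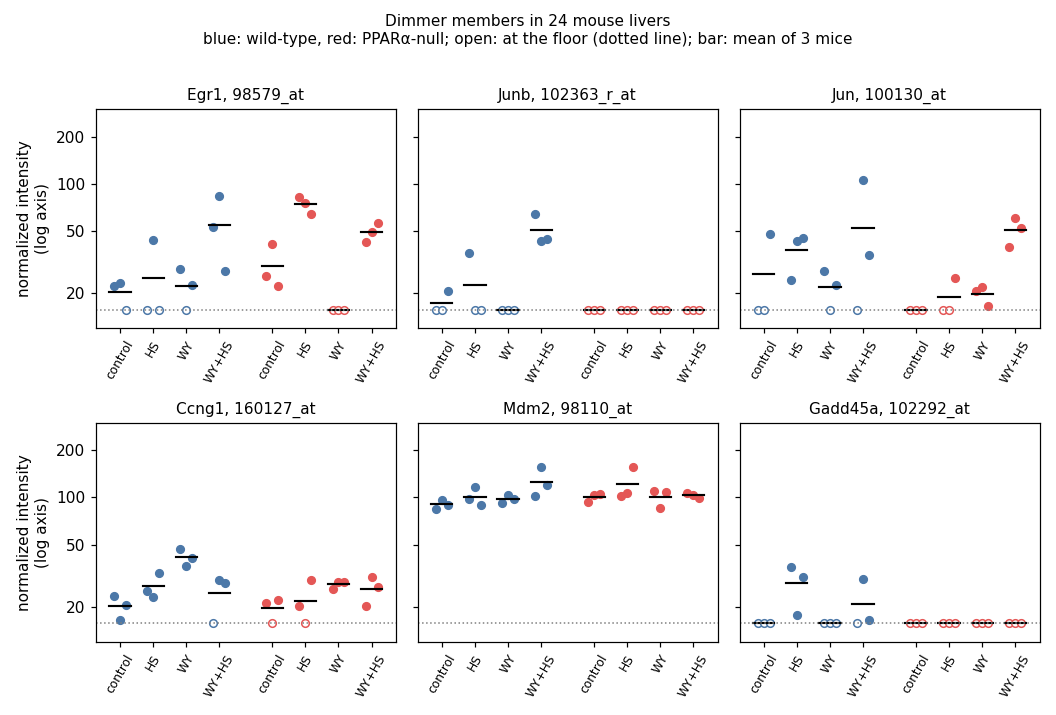
Normalized intensity (log axis) of *Egr1*, *Junb* 102363_r_at, *Jun*, *Ccng1*, *Mdm2* and *Gadd45a*, 1 point per mouse and 3 mice per group, with bars at the group means, blue for wild-type, red for PPARα-null and open points at the floor of 15.7. *Egr1* is at 64.4 to 81.7 in null HS mice, *Jun* at 39.6 to 60.1 in null WY+HS mice and *Mdm2* between 84.1 and 157 in all mice.

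Among the p53 targets, *Ccng1* rose with WY in wild-type mice. Probe set 160127_at read 23.4, 16.6 and 20.6 in controls and 47.0, 36.3 and 41.0 after WY, without overlap (41.4 ± 5.36 against 20.2 ± 3.43, SD, n = 3 mice per group, log2 change 1.04, SE 0.26, limma adjusted p = 0.0134). After WY+HS it read the floor, 29.8 and 28.6, below all 3 WY mice (log2 change against WY -0.79, adjusted p = 0.266). In null mice it ran from the floor to 31.0. The null WY mice, at 26.0 to 28.8, also lay above their controls, whose highest value was 22.1. That rise was not called (log2 change 0.52, SE 0.26, limma unadjusted p = 0.0626). The difference between the strains' WY changes was not called either (-0.53, adjusted p = 0.648). The wild-type WY call was lost without control mouse 2 (adjusted p = 0.0695) or WY mouse 7 (adjusted p = 0.0628), with the floor at the 20th percentile (adjusted p = 0.335), on an asinh scale (adjusted p = 0.0571) and under the methods' test.

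*Gadd45a* 102292_at was above the floor in 5 mice. HS mice 4, 5 and 6 read 36.1, 17.7 and 31.1, and WY+HS mice 11 and 12 read 30.1 and 16.6, all wild-type. The HS rise of at least 1.72-fold did not pass the adjusted test (log2 change 0.78, SE 0.21, unadjusted p = 0.00209, limma adjusted p = 0.488), and it did without mouse 5 (1.09, adjusted p = 0.0249). All 12 null mice lay at the floor, so the HS change there was not measured. The strains' difference in HS change was not called (-0.78, limma adjusted p = 0.247), but it was without mouse 5 (-1.09, adjusted p = 0.0366).

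*Mdm2* 98110_at was detected in every mouse. It read 84.1 to 96.2 in wild-type controls, 102, 157 and 119 after WY+HS, and 93.6 to 105 in null controls. The wild-type WY+HS mice lay above their controls (log2 change 0.46, SE 0.16, limma adjusted p = 0.0836). The call was made without mouse 10 (0.60, adjusted p = 0.032) or null HS mouse 18 (adjusted p = 0.0325), and without mouse 11 the change was 0.30. No difference between the 4 p53 targets was tested.

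Other genes of these pathways were read from lists. Among all probe sets 10.8% were called for WY and 10.6% for WY+HS in wild-type mice and 7.07% for HS in null mice, and the list counts stand beside these shares. Of 42 probe sets for 35 further immediate-early and delayed-early genes, WY in wild-type mice raised 3 and lowered 3, WY+HS raised 3 and lowered 1, HS in null mice raised 1 and HS in wild-type mice 0. The median log2 change of the list was 0.10 after WY+HS and 0.11 for added heat under WY diet in wild-type mice, and 0 in each treatment comparison of null mice, where that of all probe sets was 0. *Ier2*, an immediate early response gene, fell with WY from 174, 179.6 and 163 to 67.1, 65.5 and 71.1 (log2 change -1.34, limma adjusted p = 6.27e-05) and read 109, 180.1 and 121 after WY+HS (log2 change against WY 0.98, adjusted p = 0.0201, and 0.76 with adjusted p = 0.0613 without mouse 11). *Id2*, an inhibitor of helix-loop-helix factors, fell with WY from 853, 916 and 587 to 331, 241 and 172 (adjusted p = 0.00397).

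Another member of the *Gadd45* family rose with WY. The *Gadd45b* probe set ending in f_at was at the floor in all wild-type controls and read 72.3, 40.0 and 76.9 after WY (log2 change 1.94, limma adjusted p = 0.00488) and 30.1, 79.7 and 134 after WY+HS (adjusted p = 0.00231). *Jund*, the AP-1 subunit that is expressed in resting cells, rose in null mice after HS from 1185, 1010.2 and 1383 to 2189.6, 2469.9 and 1496 (log2 change 0.76, adjusted p = 0.0138).

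Of 23 probe sets for 20 further p53 pathway genes, WY in wild-type mice raised 3 and lowered 1, WY+HS raised 2, and 0 were called in the other treatment comparisons. *Perp*, a membrane protein of p53-dependent apoptosis, rose with WY from 234, 307 and 297 to 549.6, 451 and 532 (log2 change 0.88, limma adjusted p = 0.00114) and stood at 388, 389 and 460.2 after WY+HS (adjusted p = 0.0262). *Ei24* rose from 477, 518 and 513 to 836, 779.8 and 831 (adjusted p = 9.99e-04), and *Gpx1*, a glutathione peroxidase, from 111, 58.3 and 80.4 to 117, 184 and 161 (adjusted p = 0.00721). *Plk3*, a stress-responsive kinase, differed among the 8 groups in the F test (adjusted p = 0.00192) but had no treatment comparison called. In wild-type mice the group means of *Perp*, *Ei24*, *Gpx1* and *Ccng1* were highest after WY, and those of *Atf3* and *Cdkn1a* after WY+HS.

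Genes of the integrated stress response, which acts through ATF4 and can raise *Atf3*, had 1 of 12 probe sets called higher after HS in null mice and 1 after WY+HS in wild-type mice. The latter was *Trib3*, a target of ATF4, at 46.0, 84.2 and 54.8 against the floor, 15.9 and 21.2 in controls (log2 change 1.77, limma adjusted p = 0.0311), a call lost without mouse 11 (1.52, adjusted p = 0.113). *Atf4* rose in null HS livers from 257, 335 and 339 to 614, 573 and 412 (log2 change 0.77, limma adjusted p = 0.021) and read 453, 361 and 359 in the wild-type WY+HS livers where *Atf3* was highest, against 324, 361 and 324 in controls. *Asns*, another target, read by its brighter probe set 209, 172 and 57.6 in the same livers against 253, 240.3 and 100.5 in controls, with overlap. *Atf5* read 259, 256 and 313 there against 270.0, 424 and 459.6. *Nupr1* lay at the floor in all mice.

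With *Myc* undetected, 24 probe sets for 19 of its partners and known targets were read. WY in wild-type mice raised 1 and lowered 2, WY+HS raised 2 and lowered 2, and HS in null mice raised 1 and lowered 1. *Odc1*, the first enzyme of polyamine synthesis, rose with WY from 62.1, 71.6 and 81.5 to 148, 98.1 and 155 (log2 change 0.88, limma adjusted p = 0.00817). *Max*, the dimer partner of Myc, fell with WY from 34.8, 32.7 and 27.7 to 24.3, the floor and 22.2 (log2 change -0.63, adjusted p = 0.0218), and its antagonist *Mxi1* fell with WY+HS from 99.9, 121 and 99.3 to 41.1, 54.3 and 52.3 (adjusted p = 0.0235). *Ccnd1*, cyclin D1, by 1 of its probe sets rose in null HS livers (log2 change 1.03, adjusted p = 0.0452).

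The genes whose pattern over the 24 mice was most like that of each called member were taken by Pearson's r of log2 values among 6397 probe sets, as a description. The mice fall into treatment groups and the points share them, so no p-value is given. *Atf3* 104156_r_at was above the floor in only 3 mice, *Junb* 102363_r_at in 5 and *Cdkn1a* 98067_at in 6. Their r rests mainly on those few mice, as all their other mice share the floor value. *Atf3* 104155_f_at was above the floor in all 24 mice. It read at least 483 in the 3 wild-type WY+HS mice and at most 99.9 in the others, so its r also rests largely on those 3. *Atf3* 104155_f_at was most like *Bag3* (0.91), *Hspa1b* (0.89) and *Dnajb1* (0.87), a co-chaperone, an inducible Hsp70 and an Hsp40, and 104156_r_at was most like *Dnajb1* (0.94), *Bag3* (0.89) and *Hspa1b* (0.84). *Junb* 102363_r_at was most like *Ykt6*, *Bag3* and *Dnajb1* (0.82 to 0.83). *Cdkn1a* 94881_at was most like *Ran*, *Tubb2a* and *Gars* (0.86 each), and 98067_at most like *Cbr1* (0.92), *Ran* (0.89) and *Tubb2a* (0.88). *Egr1* was most like *Jund* (0.73), *Nfyc* (0.73) and *Sat1* (0.70).

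Heat shock genes were read mouse by mouse beside *Atf3*. *Dnajb1* read 764, 1266 and 451 in wild-type WY+HS mice 10, 11 and 12 and 19.4 to 62.2 in all others but null WY+HS mouse 23, at 116. *Hspa1b* read 2764, 3912 and 2271 in those mice, 137, 129 and 167 after WY, and 91.0, 693 and 30.9 in null WY+HS mice 22, 23 and 24. *Hspa1a* read 1899, 3076 and 1531 there and was at the floor in every other wild-type mouse. Mouse 11 was thus the highest and mouse 12 the lowest of its group for *Atf3* and each of these 3 genes, and mouse 23 was the highest of the null WY+HS mice for all 4. Mouse 11 also had the lowest array median of the study, and the part of its array in this order was not tested.

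*Hsph1* was highest in the same mouse as *Atf3* within each WY+HS group, but it was also high in other groups. It read 2011, 2169 and 1883 in wild-type WY+HS mice, but also 1619.7 and 1362 in HS mice 4 and 6, where *Atf3* read 23.6 and 30.9, and 1231, 2056 and 1339 in null WY+HS mice. High *Hsph1* was therefore found in mice with and without high *Atf3*. After WY, where *Cdkn1a* 94881_at was called higher, *Dnajb1* stood at 46.7, 45.5 and 62.2 against 32.1, 39.3 and 53.6 in controls (limma adjusted p = 0.946) and *Hsph1* at 302, 239 and 289 against 251, 193 and 157 (adjusted p = 0.981), while *Hspa1b* stood at 137, 129 and 167 against 24.2, 25.5 and 31.6 (adjusted p = 0.0822). In HS mouse 5, where *Cdkn1a* 94881_at read 162, *Tubb2a* read 851 and *Cbr1* 109.6, against 179 and 131, and 36.6 and 25.3, in the other mice of its group.

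**Figure D4:**
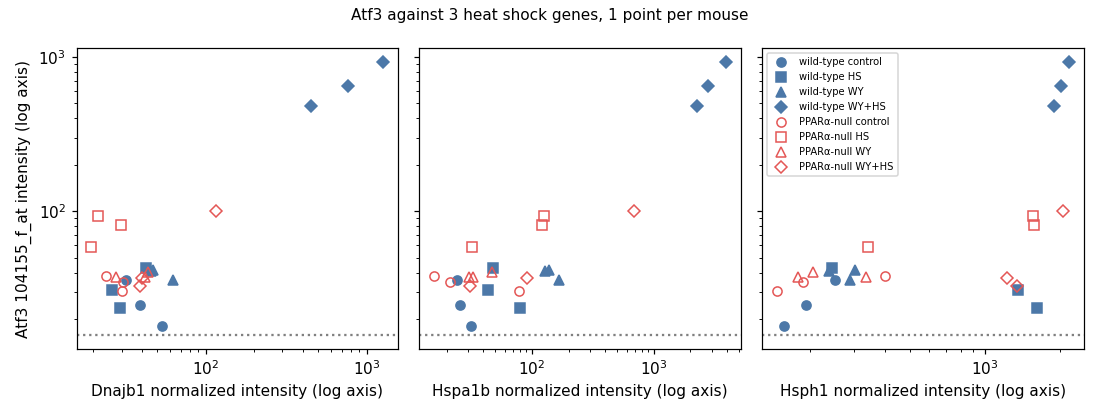
*Atf3* 104155_f_at intensity against that of *Dnajb1*, *Hspa1b* and *Hsph1* (log axes), 1 point per mouse, filled blue for wild-type and open red for PPARα-null, with the marker shape giving the treatment. The 3 wild-type WY+HS mice lie apart at *Dnajb1* of 451 to 1266 and *Hspa1b* of 2271 to 3912, whereas *Hsph1* is also above 1000 in HS and null WY+HS mice whose *Atf3* lies below 100.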

How the data were processed

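RNA from 24 livers, 1 mouse each, was hybridised by the authors to Affymetrix U74Av2 arrays as biotin-labelled cRNA and read with Affymetrix and Rosetta Resolver software. The deposited intensity values are linear and not log-transformed, 24.1% lie at or below 0, and how probes were summarised and arrays scaled was not stated in the labels or methods. Of 12488 rows, 66 control rows hold no values, and the other 12422 were tested. Gene symbols came from the platform annotation (10855 probe sets with 1 symbol, 396 with several and 1237 with none listed). Quantile normalization, a floor at the size of the 10th percentile (15.7) and log2 were applied. limma (version 3.58.1, R 4.3.3) was fitted on all 8 groups of 3 mice, with 16 residual degrees of freedom, a moderated F test, 11 planned comparisons and 3 added after seeing the data (WY by HS in wild-type mice, HS by genotype under WY, and WY+HS by genotype), Benjamini-Hochberg adjusted over 12422 probe sets at 0.05. The script was tested on simulated data drawn for probe sets well above the floor, so that test does not cover values near the floor.

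The members and gene lists were chosen with earlier results of these data known. All members are described, with up to 4 genes of each list with the smallest adjusted p past the F test and the 3 genes most like each called member. Other genes were named after their values were seen. Likeness was sought among probe sets above the floor in at least 12 mice, a rule that was not applied to the members themselves. Promoters are RefSeq sequences on GRCm38.p6. The alternatives were other scalings, floors at the 5th and 20th percentiles, a filter at the 30th percentile, trend and robust moderation, only the arrays compared, an adjusted p under 0.01, the methods' test (analysis of variance with Scheffe's post-hoc test), each mouse left out and, added later, an asinh scale without a floor. A floor is the size of a percentile below 0. The floor at the 5th percentile is therefore the higher one (33.9) and that at the 20th the lower one (3.04). With 3 mice per group only large changes are resolved. The p-values of the main fit set a difference of groups against a moderated spread between mice, pooled over the 8 groups.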

Additional observations from a re-analysis of the deposited data

Results flagged for a closer look

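In 9 results the response to a treatment differed between strains or diets by limma's test of the difference itself. For WY+HS against control, the change in PPARα-null minus that in wild-type mice was -4.19 for *Atf3* 104155_f_at, -3.25 for *Atf3* 104156_r_at, -3.52 for *Cdkn1a* 94881_at, -3.09 for *Cdkn1a* 98067_at and -1.53 for *Junb* 102363_r_at on the log2 scale. For HS under WY diet the same difference between strains was -3.71 for *Atf3* 104155_f_at and -3.25 for *Atf3* 104156_r_at. Within wild-type mice the HS change was larger under WY than under control diet by 3.75 for *Atf3* 104155_f_at and by 3.25 for *Atf3* 104156_r_at. With only the arrays compared the differences were not called for *Atf3* 104155_f_at under WY diet (adjusted p = 0.0994) or for either *Atf3* probe set within wild-type mice (adjusted p = 0.06 each). Without scaling limma did not call the WY+HS differences for *Cdkn1a* 94881_at (adjusted p = 0.108), *Cdkn1a* 98067_at (0.135) or *Junb* 102363_r_at (0.376). *Atf3* 104156_r_at, *Cdkn1a* 98067_at and *Junb* 102363_r_at lay at the floor in every null mouse, so their change there was not measured. *Atf3* 104156_r_at also lay at the floor in the other wild-type groups, so its HS change under control diet was not measured either. These 3 comparisons were chosen after the data had been seen, and all of them contain the same 3 wild-type WY+HS mice. In those mice the heat shock genes *Hspa1a* (1899, 3076 and 1531) and *Dnajb1* (764, 1266 and 451) were high as well, and their part in the results was not tested.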

How the results depend on the processing

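No paired analysis was possible because no label ties a mouse of 1 group to a mouse of another. The counts of members called were 1 without scaling for HS in wild-type mice (main 0) and for HS by genotype (main 0). For HS in null mice (main 1) the count was 0 with a common median, without scaling, with the floor at the 20th percentile, with trend and robust moderation, with only the arrays compared, under the methods' test, at an adjusted p under 0.01 and on the asinh scale, and 2 with the floor at the 5th percentile or the filter. For WY in wild-type mice (main 2) it was 0 under the methods' test and at 0.01. For WY+HS against WY in the wild-type (main 3) it was 5 with the floor at the 5th percentile and 0 with only the arrays compared. For WY by genotype (main 0) it was 1 with the floor at the 5th percentile, the filter, only the arrays compared or the asinh scale. For WY by HS in wild-type mice (main 2) it was 4 without scaling and 0 with only the arrays compared, and for WY+HS by genotype (main 5) it was 2 without scaling and 3 with the floor at the 20th percentile or at 0.01. The cause was not tested.

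Leaving out 1 mouse at a time gave 6 to 9 members in the F test, 0 to 1 for HS in wild-type mice, 0 to 1 for HS in null mice, 1 to 3 for WY and 5 to 7 for WY+HS in wild-type mice, 3 to 3 for WY+HS against WY, 0 to 1 for HS by genotype and for WY by genotype, 2 to 3 for WY by HS and for HS by genotype under WY, and 4 to 5 for WY+HS by genotype. Mouse 5 gave the highest count for HS in wild-type mice (1), WY (3), HS by genotype (1) and WY by genotype (1). Direction turned for *Mdm2* in WY+HS against WY without scaling (-0.33) and for *Gadd45a* in HS by genotype with the floor at the 20th percentile (0.076) and on the asinh scale (0.25), none of them called in the main fit.

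Counts over all probe sets moved more. Other settings gave 0 to 17 for HS in wild-type mice (main 5), 59 to 981 for HS in null mice (main 878), 713 to 1419 for WY (main 1339) and 575 to 1452 for WY+HS (main 1318) in wild-type mice, 11 to 1431 for WY+HS against WY (main 53), 0 to 13 for WY (main 1), 0 to 20 for WY+HS (main 2) and 1 to 26 for WY+HS against WY (main 3) in null mice, 14 to 111 for genotype (main 105), 27 to 215 for HS by genotype (main 201), 265 to 701 for WY by genotype (main 637), 3 to 2639 for WY by HS (main 13), 6 to 29 for HS by genotype under WY (main 13), 139 to 719 for WY+HS by genotype (main 663) and 2048 to 3897 for the F test (main 3173). Without scaling the median log2 change of all probe sets was 0.19 for HS and 0.12 for WY in wild-type mice, -0.37 for WY+HS against WY, -0.66 for WY by HS and 0.16 for HS by genotype under WY. The share called higher without scaling was 90.0% for WY (main 51.8%), 29.6% for WY+HS (main 49.3%), 68.0% for HS in null mice (main 45.0%, 29.6% with a common median), 15.1% for WY by genotype (main 42.7%), 70.4% for HS by genotype (main 41.8%) and 66.9% for WY+HS by genotype (main 50.2%), and for WY+HS against WY 20 were higher and 1411 lower (main 34 and 19). In that last setting 3 members were called higher and 1, *Ccng1*, lower.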

Other observations

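*Btg2*, an antiproliferative gene that p53 can induce and that was named after its values were seen, read 24.7, 17.2 and 54.2 in wild-type controls, 110.1, 166 and 89.9 after WY (log2 change 2.05, limma adjusted p = 0.0277) and 73.8, 151 and 116 after WY+HS (adjusted p = 0.0385, and 0.124 without mouse 11). *Ddit3*, a stress gene of the ATF4 pathway, was above the floor only in wild-type mice 5 (35.7) and 11 (47.6).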
